A study of Homo sapiens with 10 samples.

Results

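Autophagy core genes and receptors are described here in tumours in which the MYC inhibitor Omomyc was switched on. They comprise 38 genes, of which 37 were measured among 17492 genes, each by 1 probe set. They were chosen by name, as the genes whose products build the autophagosome and load it with cargo. VMP1 was not analysed here. All tumours were grown under the skin of BALB/c nude mice from A375, an established human melanoma cell line, engineered so that doxycycline induces Omomyc, a dominant-negative MYC mutant. When tumours reached 100 mm3, 5 mice received vehicle and 5 received doxycycline in the drinking water, and the tumours were excised 7 days later. Total RNA of each tumour was measured on 1 Affymetrix array, so there were 5 arrays per group, which the labels call biological replicas. The number of arrays limits the precision.

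No doxycycline-treated tumours lacking Omomyc were analysed here, so Omomyc and the drug itself cannot be told apart as sources of a difference. A nude host lacks T cells but keeps its macrophages and stroma, and mouse RNA can hybridise to probes for human genes. In such bulk tissue, fewer cells of a type and less RNA per cell cannot be told apart. Vehicle arrays correlated with each other at 0.979 to 0.987, doxycycline arrays at 0.965 to 0.985, and arrays of different groups at 0.954 to 0.974. Doxycycline arrays 4 and 5 resembled the rest of their group least, with mean correlations of 0.973 and 0.967. Of 12 measured melanoma markers none was called changed by limma, against 11.0% of all 17492 genes. At an unadjusted p below 0.05 were 2, against 4307 of all genes in either direction. The average over the 12 was 5.26 ± 0.12 for the vehicle group and 5.34 ± 0.23 for the doxycycline group (SD, n = 5 each, log2 scale). The brightest over all arrays was MIA, at 8.38 ± 0.24 and 9.09 ± 0.80. SOX10, S100B and MIA were lowest of all 10 arrays on doxycycline array 5, at 6.49, 5.06 and 7.69, and without that array 6 of the 7 autophagy genes named below kept their call. The pigment genes PMEL, MLANA and TYR were low in the vehicle tumours, at 3.23, 3.12 and 3.00, while the melanocyte lineage factor SOX10 was at 7.40.

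Autophagy encloses part of the cytoplasm in a double membrane and delivers it to the lysosome. A kinase complex around ULK1 starts the process, a lipid kinase complex around Beclin 1 marks the growing membrane with PI3P, and WIPI proteins read that mark. Ubiquitin-like conjugation enzymes then attach proteins of the ATG8 family, the LC3 and GABARAP proteins, to the membrane, where cargo receptors bind them. Genes of the pathway are known targets of the transcription factors TFEB, TFE3 and FOXO3, and TFEB binds the CLEAR element, whose core is the E-box that MYC and MAX also bind. A transcript level is not a measure of autophagic flux, which depends on turnover of the proteins.

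The 250 bases ahead of the RefSeq start are shown for 4 of the called genes, and for ATG3, because it holds the E-box. The 4 are GABARAPL1, WIPI1 and BECN1, which kept their call in every refit, and MAP1LC3B. MAP1LC3B is a called LC3 gene with a promoter in the RefSeq set, which held none for MAP1LC3A, called as well. All windows shown are from GRCh38.p14 and are written in the direction of the gene. They lie at chr12:10212627-10212876 on the plus strand for GABARAPL1, chr17:68457497-68457746 on the minus strand for WIPI1, chr17:42823880-42824129 on the minus strand for BECN1, chr16:87392086-87392335 on the plus strand for MAP1LC3B and chr3:112561963-112562212 on the minus strand for ATG3. Capitals mark the E-box CACGTG, the cyclic AMP response element TGACGTCA and the GC box GGGCGG, on either strand.
GABARAPL1: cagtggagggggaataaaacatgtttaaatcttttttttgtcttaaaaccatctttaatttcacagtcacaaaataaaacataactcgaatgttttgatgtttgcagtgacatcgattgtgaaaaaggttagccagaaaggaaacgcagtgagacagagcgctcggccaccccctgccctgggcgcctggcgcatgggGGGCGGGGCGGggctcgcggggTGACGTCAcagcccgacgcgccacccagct
WIPI1: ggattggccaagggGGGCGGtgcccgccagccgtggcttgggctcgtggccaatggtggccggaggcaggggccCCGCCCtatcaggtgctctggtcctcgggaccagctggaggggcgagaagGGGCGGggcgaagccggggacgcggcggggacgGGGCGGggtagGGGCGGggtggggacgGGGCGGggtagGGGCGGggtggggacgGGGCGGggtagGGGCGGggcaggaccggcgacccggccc
BECN1: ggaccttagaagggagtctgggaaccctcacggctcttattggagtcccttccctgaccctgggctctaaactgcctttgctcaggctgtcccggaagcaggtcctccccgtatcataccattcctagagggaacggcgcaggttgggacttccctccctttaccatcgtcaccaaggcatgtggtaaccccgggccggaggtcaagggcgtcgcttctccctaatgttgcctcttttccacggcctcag
MAP1LC3B: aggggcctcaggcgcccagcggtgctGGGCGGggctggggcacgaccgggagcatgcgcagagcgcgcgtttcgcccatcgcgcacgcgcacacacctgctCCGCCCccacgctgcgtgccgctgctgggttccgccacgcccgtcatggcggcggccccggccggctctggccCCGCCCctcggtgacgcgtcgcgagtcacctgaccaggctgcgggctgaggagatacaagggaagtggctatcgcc
ATG3: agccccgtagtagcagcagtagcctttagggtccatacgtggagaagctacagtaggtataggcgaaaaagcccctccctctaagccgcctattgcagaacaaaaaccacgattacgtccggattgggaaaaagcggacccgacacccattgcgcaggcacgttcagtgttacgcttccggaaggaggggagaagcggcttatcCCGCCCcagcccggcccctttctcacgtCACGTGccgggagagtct

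Promoters were in the RefSeq set for 33 of the 37 measured genes, with 42 windows in all because some genes have more than 1 start. The E-box was in 2 of these 42 windows, those of ATG3 and ATG14, or 4.76%, against 6.34% of the 35116 windows of all genes. The E-box in ATG3 begins 18 bases and that in ATG14 begins 21 bases before the start. The whole CLEAR element, taken as the E-box with GT ahead of it and AC behind it, was in 0 of the 42 and in 0.308% of all windows, and the FOXO motif GTAAACA was in 1, that of CALCOCO2, and in 2.98% of all. The cyclic AMP response element was in the windows of GABARAPL1, 30 bases before the start, and TP53INP2, and in 1.65% of all. GC boxes were in 69% of the 42 windows and in 42.6% of all, with 9 in WIPI1, 3 in MAP1LC3B and 2 in GABARAPL1. Of the 6 called genes with a window 5 held a GC box, and BECN1 held none of the motifs searched. The median GC content was 62.6% in these windows and 58% in all, and its part in that last comparison was not tested. A match describes these letters and is not evidence of a bound site.

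Of the 37 measured autophagy genes 7 rose in the doxycycline-treated tumours and 0 fell (limma, adjusted p under 0.05 over all genes). The 7 that rose were GABARAPL1, WIPI1, MAP1LC3A, MAP1LC3B, ATG2A, BECN1 and ATG101. Over all 17492 genes, 11.0% were called in either direction, 5.03% higher and 5.95% lower. At an unadjusted p below 0.05, 16 of the 37 were higher and 0 lower, against 2192 and 2115 of all 17492 genes, and 32 of 37 had a positive change, against 9169 of 17492 genes. The median change was 0.25 for the 37 genes and 0.02 for all genes, doxycycline minus vehicle on the log2 scale, as are all changes below. In 8 of the 37, the 7 called genes and ULK1, the groups did not overlap and doxycycline was the higher, which was so in 5.38% of all genes. In 0 of the 37 was it the lower without overlap, against 6.43% of all genes, and 11.8% of all genes had no overlap in either direction.

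**Figure D1:**
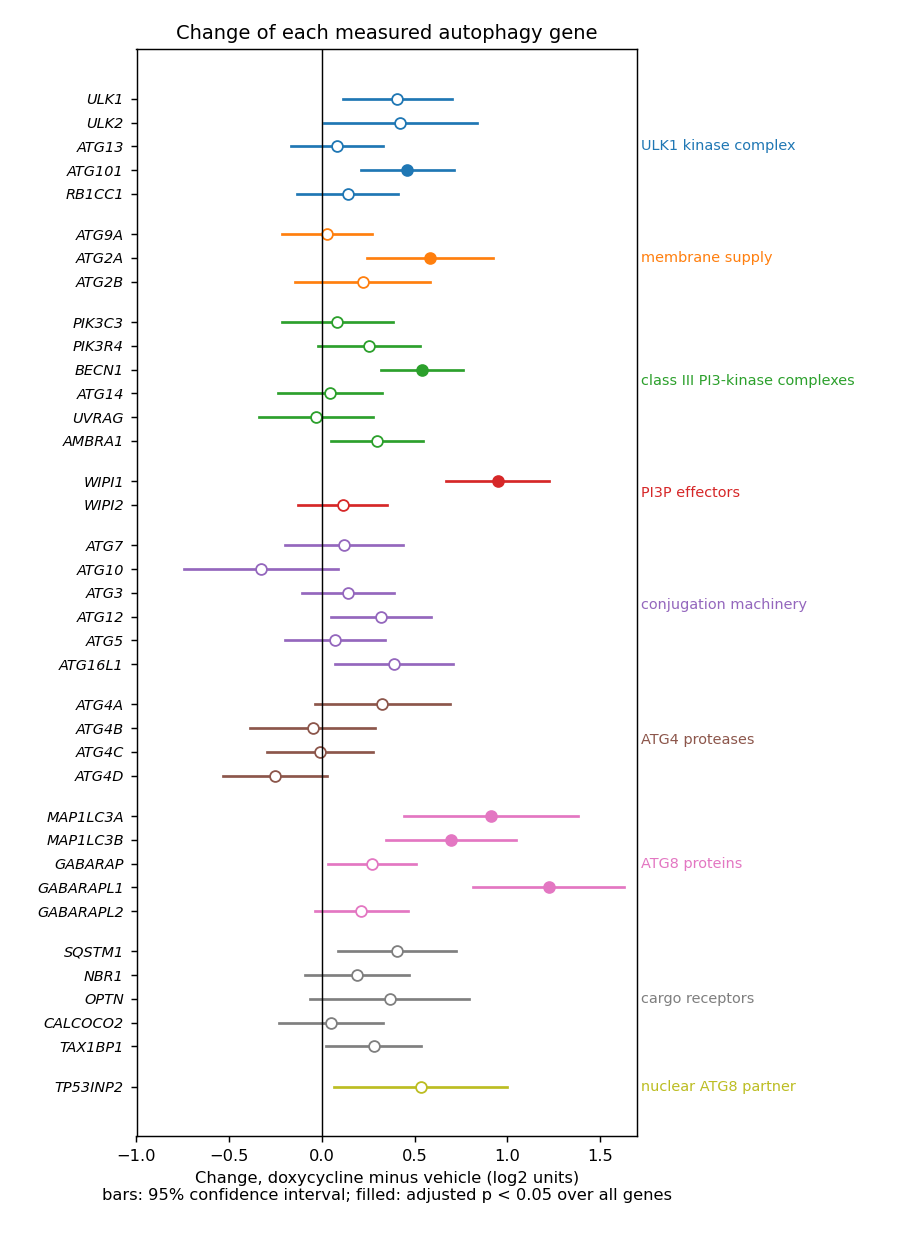
Change of each of the 37 measured autophagy genes, doxycycline minus vehicle on the log2 scale, with its 95% confidence interval (5 arrays per group), ordered by role. Filled points passed an adjusted p of 0.05 over all genes. Filled points are seen in the ATG8, PI3P effector, membrane supply, PI3-kinase and ULK1 groups, and the ATG4, conjugation and receptor groups have open points alone.

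Among the ATG8 proteins 3 of 5 rose, against 5.03% of all genes, and the median change was 0.70. GABARAPL1, a GABARAP-subfamily protein, was at 7.79, 8.20, 7.65, 7.74 and 7.40 in vehicle arrays 1 to 5. It was at 8.87, 9.45, 9.11, 8.94 and 8.53 in doxycycline arrays 1 to 5. Its lowest doxycycline array, number 5, stood above its highest vehicle array, number 2. The rise was 1.22, or 2.33-fold (95% CI 0.82 to 1.63, limma, adjusted p = 0.00155). A processed copy of this gene exists in the human genome, and how the array separates them was not tested.

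MAP1LC3A, which encodes LC3A, was at 5.73, 5.61, 4.72, 5.46 and 5.88 in vehicle arrays 1 to 5 and at 6.27, 6.11, 6.24, 6.84 and 6.50 in doxycycline arrays 1 to 5. Vehicle array 3 was low and doxycycline array 4 was high, and the groups did not overlap. The rise was 0.91 (95% CI 0.44 to 1.38, limma, adjusted p = 0.0173). MAP1LC3B, which encodes LC3B, the protein most used to follow autophagosomes, was at 7.64, 8.13, 7.89, 7.62 and 7.9997 in vehicle arrays. It was at 8.21, 8.63, 8.38, 8.95 and 8.59 in doxycycline arrays, so that doxycycline array 1 stood just above vehicle array 2. The rise was 0.70, or 1.62-fold (95% CI 0.35 to 1.05, limma, adjusted p = 0.0154). MAP1LC3B2 is a near-identical copy of MAP1LC3B, and its own probe set differed by 0.19 (adjusted p = 0.705). GABARAP differed by 0.27 (adjusted p = 0.144) and GABARAPL2 by 0.21 (adjusted p = 0.286). Doxycycline array 5 of GABARAP, at 11.08, and array 1 of GABARAPL2, at 8.38, lay within their vehicle ranges.

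**Figure D2:**
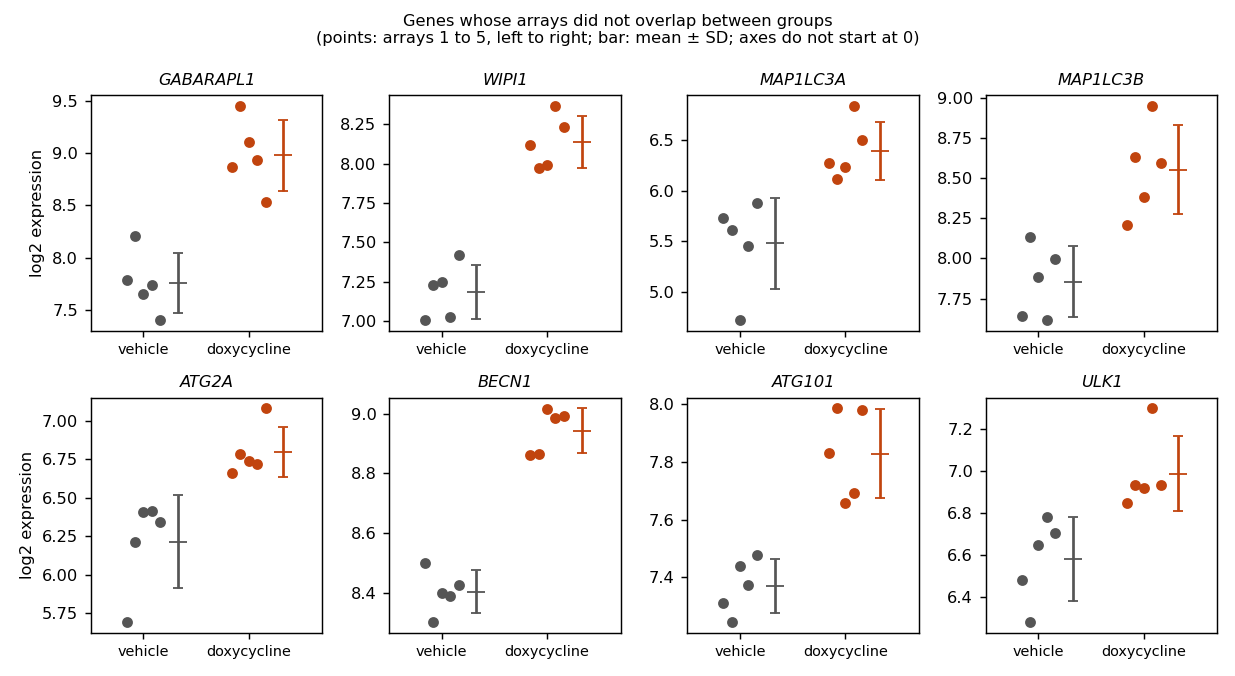
Log2 expression of the 8 autophagy genes whose groups did not overlap, with 1 point per array and the mean ± SD (n = 5) beside it. In each panel the lowest doxycycline array stands above the highest vehicle array, and ULK1 alone of the 8 did not pass the test over all genes.

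In 7 pairs of related genes, the change of the first was compared with that of the second within each array, by an exact two-sided permutation test adjusted over the 7 pairs. Of these, 3 pairs moved unequally, each with no overlap between the groups. GABARAPL1 moved by 1.01 more than GABARAPL2 (SE 0.165) and by 0.95 more than GABARAP (SE 0.169), and WIPI1 moved by 0.84 more than WIPI2 (SE 0.147). For each of the 3, the exact permutation p was 0.00794, the smallest the design allows, and the adjusted p was 0.0185. MAP1LC3A moved by 0.22 more than MAP1LC3B (SE 0.24, exact permutation test, adjusted p = 0.481), so a difference between both LC3 genes was not detectable. The changes of ATG2A and ATG2B differed by 0.36 (SE 0.257, adjusted p = 0.333), those of SQSTM1 and NBR1 by 0.21 (SE 0.188, adjusted p = 0.422), and those of ULK1 and ULK2 by -0.02 (SE 0.156, adjusted p = 0.937). GABARAPL1, which had the largest change of the 37 genes, is in 2 of the pairs, which are thus not independent. The pairs were laid down together with the gene lists, which were chosen with earlier results of these data known.

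Among PI3P effectors, WIPI1 rose and WIPI2 did not pass. WIPI1 was at 7.01, 7.23, 7.25, 7.03 and 7.42 in vehicle arrays and at 8.12, 7.97, 7.99, 8.37 and 8.23 in doxycycline arrays. The lowest doxycycline array, number 2, stood well above the highest vehicle array, number 5. The rise was 0.95, or 1.93-fold (95% CI 0.67 to 1.23, limma, adjusted p = 0.000703). WIPI2, which recruits the conjugation machinery, differed by 0.11 (95% CI -0.13 to 0.35, adjusted p = 0.597).

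In the class III PI3-kinase complexes 1 of 6 genes rose, against 5.03% of all genes, and the median change was 0.17. BECN1, which encodes the scaffold Beclin 1, was at 8.50, 8.30, 8.40, 8.39 and 8.42 in vehicle arrays and at 8.86, 8.86, 9.02, 8.99 and 8.99 in doxycycline arrays. Its spread was small in both groups, with SDs of 0.07 and 0.07 (n = 5 each). The rise was 0.54, or 1.45-fold (95% CI 0.32 to 0.76, limma, adjusted p = 0.005). The catalytic subunit gene PIK3C3 differed by 0.08 (95% CI -0.21 to 0.38) and PIK3R4, its regulatory subunit, by 0.25 (adjusted p = 0.241). AMBRA1, a positive regulator of Beclin 1, differed by 0.30 (adjusted p = 0.126), with all 5 doxycycline arrays above the vehicle mean. ATG14, which directs the complex to the autophagosome, differed by 0.04 (95% CI -0.24 to 0.32). UVRAG, which takes the place of ATG14 in the endosomal complex, differed by -0.03 (95% CI -0.34 to 0.28).

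In the ULK1 kinase complex all 5 changes were positive, with a median of 0.41, and 1 gene rose, against 5.03% of all genes. ATG101, which stabilises ATG13, was at 7.31, 7.25, 7.44, 7.37 and 7.48 in vehicle arrays and at 7.83, 7.99, 7.66, 7.69 and 7.98 in doxycycline arrays. The groups did not overlap, and the rise was 0.46 (95% CI 0.21 to 0.71, limma, adjusted p = 0.0229). Leaving out vehicle array 1, 2 or 4, or else doxycycline array 2, made ATG101 miss the threshold (adjusted p = 0.0593, 0.0549, 0.051 and 0.0553). ULK1, the kinase itself, was at 6.48, 6.28, 6.65, 6.78 and 6.70 in vehicle arrays and at 6.85, 6.94, 6.92, 7.30 and 6.93 in doxycycline arrays. Although these did not overlap, its change of 0.41 did not pass (95% CI 0.11 to 0.70, limma, adjusted p = 0.0778). ULK2 differed by 0.42 (adjusted p = 0.193), the scaffold gene RB1CC1 by 0.14 (adjusted p = 0.553) and ATG13 by 0.08 (adjusted p = 0.73).

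Of the 3 measured membrane supply genes 1 rose, against 5.03% of all genes. ATG2A encodes a bridge that transfers lipids into the growing membrane. It was at 5.69, 6.21, 6.41, 6.41 and 6.34 in vehicle arrays and at 6.66, 6.78, 6.74, 6.72 and 7.08 in doxycycline arrays. Vehicle array 1 stood below the other vehicle arrays, and the groups did not overlap. The rise was 0.58 (95% CI 0.24 to 0.92, limma, adjusted p = 0.0319), and without vehicle array 1 the change was 0.45 (adjusted p = 0.0574). ATG2A also missed the threshold when vehicle array 2, or when doxycycline array 2, 3 or 5, was left out (adjusted p = 0.062, 0.0587, 0.0507 and 0.0608). The other two, the paralogue ATG2B and the scramblase gene ATG9A, differed by 0.22 (adjusted p = 0.473) and 0.03 (95% CI -0.21 to 0.27).

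Of the 6 genes of the conjugation machinery 0 were called by limma, and 2 had an unadjusted p below 0.05, both with positive changes, against 4307 of all 17492 genes in either direction. These were ATG16L1, which fixes the site of conjugation, with a change of 0.39 (adjusted p = 0.115), and the ubiquitin-like protein gene ATG12, with 0.32 (adjusted p = 0.134). ATG16L1 passed without doxycycline array 4 (0.49, adjusted p = 0.0419). ATG5, the partner of ATG12, differed by 0.07 (95% CI -0.20 to 0.34), the E1-like enzyme gene ATG7 by 0.12 (95% CI -0.20 to 0.44) and the E2-like enzyme gene ATG3 by 0.14 (95% CI -0.11 to 0.39). ATG10, the E2-like enzyme for ATG12, differed by -0.33 (95% CI -0.74 to 0.09), with doxycycline array 5 at 4.30 and its other doxycycline arrays between 5.13 and 5.42. Of the 4 proteases that process ATG8 proteins and recycle them, 0 were called by limma and 0 had an unadjusted p below 0.05. ATG4A differed by 0.33, ATG4B by -0.05, ATG4C by -0.01 and ATG4D by -0.25 (adjusted p = 0.254, 0.892, 0.975 and 0.255). In ATG4D, 0 of 5 doxycycline arrays stood above the vehicle mean, although the groups overlapped.

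Of the 5 cargo receptor genes 0 were called by limma, against 11.0% of all genes. At an unadjusted p below 0.05 were 2, against 4307 of all 17492 genes in either direction. All 5 changes were positive, with a median of 0.28. SQSTM1, which encodes the receptor p62 and is a target of NRF2 as well, was at 9.56, 9.83, 9.77, 9.42 and 9.90 in vehicle arrays. It was at 9.84, 10.10, 9.96, 10.12 and 10.46 in doxycycline arrays, where array 1 lay within the vehicle range. Its change was 0.40 (95% CI 0.09 to 0.72, limma, adjusted p = 0.102). TAX1BP1 differed by 0.28 (adjusted p = 0.16), with all 5 doxycycline arrays above the vehicle mean, OPTN by 0.37 (adjusted p = 0.284), NBR1 by 0.19 (adjusted p = 0.412) and CALCOCO2, the receptor NDP52, by 0.05 (95% CI -0.23 to 0.33). TP53INP2, whose protein draws LC3 from the nucleus to the cytoplasm, differed by 0.53 (95% CI 0.07 to 1.00, adjusted p = 0.143). Its doxycycline arrays were at 6.08, 5.95, 5.45, 6.82 and 6.08, so array 3 fell between the vehicle arrays, which spanned 5.31 to 5.86, and array 4 was far above them. Without doxycycline array 3 its change was 0.69 (adjusted p = 0.0436).

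Averaged over the 37 genes, doxycycline arrays 1 to 5 deviated from the mean of the vehicle group by 0.20, 0.28, 0.31, 0.33 and 0.29, with -0.03 to 0.03 in the vehicle arrays. For the 5 ATG8 genes it was 0.53, 0.79, 0.64, 0.81 and 0.55 in the doxycycline arrays and -0.185 to 0.187 in the vehicle arrays. For the conjugation machinery it was 0.03 to 0.27 in the doxycycline arrays and -0.13 to 0.05 in the vehicle arrays, so these overlapped.

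Some macrophage and monocyte markers differed between the groups, and autophagy genes are expressed in macrophages too. Of 20 measured markers 13 had a positive and 7 a negative change, with a median of 0.25. Of these 2 rose, LYZ by 1.28 (limma, adjusted p = 0.000384) and CD14 by 0.79 (adjusted p = 0.0244; called in 6 of the 10 refits that leave out 1 array), against 5.03% of all genes, and 0 fell. The mean level over the 20 ranged from 4.03 to 4.20 in the vehicle arrays and from 4.16 to 4.52 in the doxycycline arrays. Against the average of the vehicle group it was at 0.07, 0.08, 0.05, 0.42 and 0.37 in doxycycline arrays 1 to 5, so arrays 4 and 5 stood above the rest, and arrays 1 to 3 lay within the vehicle span of -0.071 to 0.099. The brightest marker, CD68, differed by 0.48 (adjusted p = 0.0975). Several of the 20 were very dim. CD86, the dimmest, was at 1.40 in vehicle and 1.69 in doxycycline tumours, at percentile 0.469 of the mean levels of all genes. AIF1, ADGRE1 and MRC1 were at percentiles 2.72, 7.69 and 9.84, and the mean over the 20 includes all of these. LAPTM5 had the most negative change, -0.47 (adjusted p = 0.196), and CSF1R differed by -0.15 (adjusted p = 0.72). With this mean as a covariate 3 of the 7 genes kept their call, GABARAPL1 with a change of 1.36 (adjusted p = 0.00905), WIPI1 with 0.77 (adjusted p = 0.0131) and BECN1 with 0.52 (adjusted p = 0.0418). The changes of ATG101, ATG2A, MAP1LC3A and MAP1LC3B were then 0.47, 0.51, 0.65 and 0.42 (adjusted p = 0.0935, 0.181, 0.176 and 0.18). Over all genes, 5.91% were called in either direction with this covariate and 11.0% without it. Without doxycycline arrays 4 and 5, the 3 genes GABARAPL1, WIPI1 and BECN1 changed by 1.39, 0.84 and 0.51 (adjusted p = 0.00232, 0.00407 and 0.0191) and ATG101 by 0.46 (adjusted p = 0.0467). MAP1LC3A, MAP1LC3B and ATG2A then missed the threshold, with 0.73, 0.55 and 0.52 (adjusted p = 0.0804, 0.0601 and 0.0959).

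Of the other cell types, 0 of 10 measured fibroblast and pericyte markers and 0 of 10 endothelial markers were called by limma, with 5 and 1 at an unadjusted p below 0.05. Over all genes 11.0% were called, and 4307 of 17492 had an unadjusted p below 0.05 in either direction. Of the fibroblast and pericyte markers 7 of 10 had a negative change, with a median of -0.51, although the brightest, COL1A2, differed by 0.40 (adjusted p = 0.188). PDGFRB, a pericyte receptor, had the smallest p, with a change of -0.57 and no overlap between groups (adjusted p = 0.0506), LUM differed by -0.96 (adjusted p = 0.0571) and COL1A1 by -0.58 (adjusted p = 0.0807). ACTA2 differed the other way, by 0.52 (limma, adjusted p = 0.0526). Of the 5 fibroblast and pericyte markers at an unadjusted p below 0.05, 2 were higher and 3 lower. Of the endothelial markers 8 of 10 had a positive change, with a median of 0.09, although the brightest, ENG, differed by -0.31 (adjusted p = 0.172). The part of these markers in the autophagy gene values was not tested. Mean levels of the fibroblast and of the endothelial markers ranged from 5.30 to 5.93 and 4.16 to 4.54 in vehicle and from 5.11 to 5.60 and 4.13 to 4.76 in doxycycline arrays. Of 6 neutrophil markers 1 rose, against 5.03% of all genes. This was MPO, by 0.50 (limma, adjusted p = 0.036), called in 4 of the 10 refits that leave out 1 array. MPO was dim, at 2.93 in vehicle and 3.42 in doxycycline tumours, at percentile 20.5 of the mean levels of all genes. List means were 2.72 to 3.08 in vehicle and 2.93 to 3.14 in doxycycline arrays. The brightest neutrophil marker, CSF3R, differed by 0.20 (adjusted p = 0.507).

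**Figure D3:**
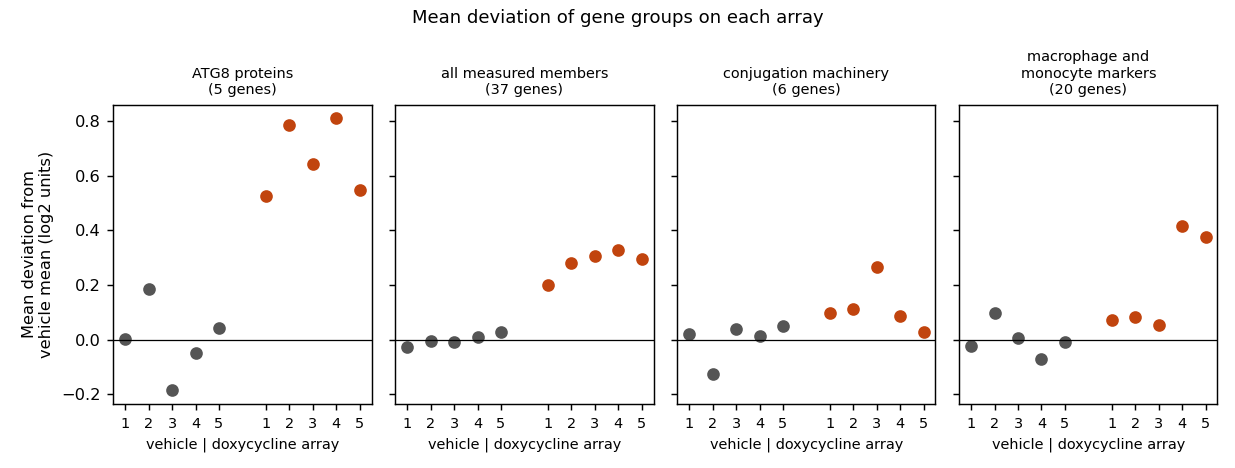
Mean deviation from the vehicle mean, in log2 units, for each of the 10 arrays, over the 5 ATG8 genes, the 37 measured autophagy genes, the 6 conjugation genes and the 20 macrophage and monocyte markers. Doxycycline arrays 4 and 5 stand apart for the macrophage markers, at 0.42 and 0.37, while the ATG8 mean is raised on all 5 doxycycline arrays.

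Beyond these genes, lists of other pathway genes held 73 measured genes, of which 8 rose and 4 fell, against 5.03% and 5.95% of all genes, with a median change of 0.19. Among 14 genes for fusion of the autophagosome with the lysosome all changes were positive, with a median of 0.47, and 2 rose. VPS39 and VPS18, subunits of the HOPS tethering complex, rose by 0.50 (limma, adjusted p = 0.0214) and 0.56 (adjusted p = 0.0389). Of 16 other assembly genes 1 rose, EPG5, a Rab7 effector that acts in fusion as well, by 0.97 (adjusted p = 0.0436). Without vehicle array 1, EPG5, VPS39 and VPS18 did not pass (adjusted p = 0.0929, 0.0607 and 0.0986), and 5 of the pathway genes were called higher in place of 8. Of the 10 refits that leave out 1 array, EPG5 passed in 2, VPS18 in 2 and VPS39 in 7.

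Of 16 selective autophagy genes 1 rose and 1 fell, against 5.03% and 5.95% of all genes, and the median change was -0.08. CALCOCO1, a receptor for the endoplasmic reticulum, was at 6.98, 6.58, 7.12, 6.88 and 6.89 in vehicle arrays and at 7.98, 7.81, 7.78, 7.70 and 7.43 in doxycycline arrays, without overlap. It rose by 0.85 (95% CI 0.55 to 1.15, limma, adjusted p = 0.00222). BNIP3, a hypoxia-induced mitophagy receptor, was at 11.26, 11.39, 11.44, 10.83 and 11.15 in vehicle and at 9.36, 10.47, 10.15, 9.26 and 9.55 in doxycycline arrays, and it fell by 1.46 (adjusted p = 0.00183). Its paralogue BNIP3L differed by -0.48 (adjusted p = 0.111).

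Of 21 upstream kinase control genes 4 rose and 3 fell, against 5.03% and 5.95% of all genes, with a median change of 0.17. PRKAG2, a regulatory subunit of the energy sensor AMPK, was at 5.71, 5.3995, 5.24, 5.39 and 6.95 in vehicle and at 6.93, 7.51, 7.80, 8.49 and 9.14 in doxycycline arrays. Doxycycline array 1 thus stood just below vehicle array 5, and the rise was 2.24 (95% CI 1.34 to 3.13, limma, adjusted p = 0.00451). PRKAB1, another AMPK subunit, rose by 0.61 (adjusted p = 0.0187). SESN1 and SESN2, stress-induced inhibitors of mTORC1, rose by 1.35 (adjusted p = 0.00258) and 0.70 (adjusted p = 0.00811). DDIT4, also an inhibitor of mTORC1, fell by 2.51 (adjusted p = 0.00183), the mTOR partner gene MLST8 fell by 0.57 (adjusted p = 0.00833) and EEF2K, a kinase that mTORC1 signalling restrains, fell by 0.95 (adjusted p = 0.00225). The mTOR kinase gene itself, MTOR, differed by 0.18 (adjusted p = 0.527).

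Of 6 measured transcription factors of autophagy genes 0 were called by limma, against 11.0% of all genes. At an unadjusted p below 0.05 were 2, against 4307 of all 17492 genes in either direction. TFE3 had the smallest p, with a change of 0.34 (adjusted p = 0.061) and no overlap between groups. FOXO1 had the largest change, 0.60 (adjusted p = 0.175), with all 5 doxycycline arrays above the vehicle mean. However, the groups overlapped, as doxycycline arrays 2 to 5 lay below vehicle array 5, at 3.91. FOXO1 was dim, at 3.06 in vehicle and 3.66 in doxycycline tumours, at percentile 23.0 of the mean levels of all genes. TFEB differed by 0.23 (adjusted p = 0.341), FOXO3 by -0.16 (adjusted p = 0.6) and MITF by 0.09 (adjusted p = 0.85).

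**Figure D4:**
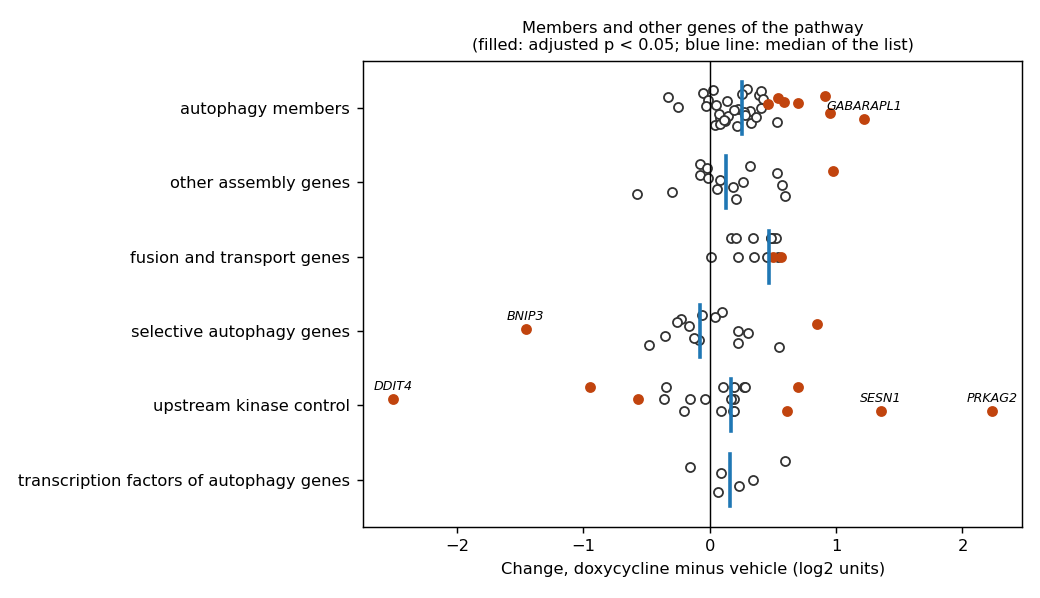
Change of the 37 measured autophagy genes and of 73 other pathway genes in 5 lists, doxycycline minus vehicle on the log2 scale, with 1 point per gene, filled where the adjusted p was under 0.05, and a blue line at each list's median. The fusion genes lie at or above 0 with a median of 0.47, and the upstream kinase genes spread from -2.51 for DDIT4 to 2.24 for PRKAG2.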

How the data were processed

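Expression was measured in 5 vehicle and 5 doxycycline A375 xenografts, 1 array each. The deposited values are log2 expression; per the submitters' processing notes they come from RMA, whose version is not stated there. Of 18569 probe sets, 17511 carried 1 gene symbol, 0 several and 1058 none in the platform annotation, and 17511 Entrez identifiers matched the RefSeq gene table. Where a gene had several probe sets (17 genes), the brightest on average was kept.

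Groups were compared in limma 3.58.1 (R 4.3.3) with a two-sided moderated test on group alone, adjusted by Benjamini-Hochberg over 17492 genes, with a threshold of 0.05. The procedure was also run on simulated data, where it recovered large changes more often than small ones. A gene that was not called is thus not shown to be unchanged. The 38 genes, the other lists and the alternatives were chosen with earlier results of these data known, so no list was tested as such. The text names all measured members, called genes of the other lists, the smallest p of pathway lists without one, and the brightest marker of each marker list; further genes were picked after their values were seen. Motifs were searched in the first 250 bases of RefSeq promoters (GRCh38.p14).

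The alternatives tried were a block for the replicate number, trended or robust moderation, weights per array, centring on the median, repeated quantile normalization, leaving out the dimmest 30% of genes, averaging probe sets, a test per gene with unequal variances, a minimum change of 1.5-fold, the macrophage marker mean as a covariate, and arrays left out.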

Additional observations from a re-analysis of the deposited data

Results flagged for a closer look

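Within groups of 5 arrays, 1 array stood far from the others in 3 of the 74 groups examined, measured as its gap to the nearest array over the whole range, with a critical value of 0.71. Chance alone gives about 1 such group in 20. For ULK1 it was doxycycline array 4, at 7.30 with the next array at 6.94 (ratio 0.803). For ATG2A it was vehicle array 1, at 5.69 with the next at 6.21 (ratio 0.723). For ATG10 it was doxycycline array 5, at 4.30 with the next at 5.13 (ratio 0.74).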

How the results depend on the processing

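The count of autophagy genes called higher was 7, and between 5 and 9 under the alternatives other than the macrophage marker mean as a covariate (3) and a minimum change of 1.5-fold (4); the count called lower was 0 in each. With arrays left out the count called higher ranged from 5 to 8. Over all genes, the share called in either direction was 11.0% in the main fit and 5.91% with the covariate. This share was 11.3% with a second quantile normalization, 14.4% with trended moderation and 7.34% with the test with unequal variances. With arrays left out it ranged from 7.9% to 11.0%. Leaving out the dimmest genes kept all 37 autophagy genes and called 8 of them higher, with 18.8% of all genes then called in either direction. GABARAPL1, WIPI1 and BECN1 passed in all 21 refits, although BECN1, at 1.45-fold, did not reach the minimum change of 1.5-fold. Of the other pathway genes, 8 were higher and 4 lower; with the covariate 2 were higher, CALCOCO1 and SESN1, with a second quantile normalization 10, with trended moderation 11 and without the dimmest genes 12, and with arrays left out 5 to 8 were higher and 4 to 5 lower. With the replicate number as a block, 6 autophagy genes were called, ATG101 missing the threshold (adjusted p = 0.0635), and 0 of the 3 gene pairs passed, because exchanging labels within numbers cannot give a p below 0.0625. Same-numbered arrays shared little: their deviations correlated between -0.0635 and 0.191, over 0.1 in 1 of 5 pairs, and 2 of 5 doxycycline arrays correlated best with their own number. With the test per gene with unequal variances 5 genes were called, without MAP1LC3A (adjusted p = 0.0711) and ATG2A (adjusted p = 0.0796). GABARAP (adjusted p = 0.0164) and SQSTM1 (adjusted p = 0.0263) passed with trended moderation and ULK1 (adjusted p = 0.0459) without the dimmest genes. Changes that did not pass and lay near 0 turned in sign, and the cause was not tested. With the covariate ATG9A, PIK3C3, ATG14, ATG7 and ATG4B were at -0.020, -0.00027, -0.16, -0.0019 and 0.083, and with array weights ATG14 and ATG4B at -0.0029 and 0.038. With 1 array or doxycycline arrays 4 and 5 left out, ATG9A ranged from -0.027 to 0.055, ATG14 from -0.093 to 0.12, UVRAG from -0.10 to 0.050, ATG7 from -0.0057 to 0.19, ATG4B from -0.14 to 0.099, ATG4C from -0.085 to 0.043, CALCOCO2 from -0.019 to 0.11, ULK1 minus ULK2 from -0.12 to 0.16 and SQSTM1 minus NBR1 from -0.060 to 0.31.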

Other observations

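Several relatives of the core genes that were not among the 38 were not called, unlike CALCOCO1 and EPG5 above. MAP1LC3C, a further LC3 gene, differed by 0.32 (limma, adjusted p = 0.372), ATG9B by 0.08 (adjusted p = 0.8), ATG16L2 by -0.08 (adjusted p = 0.808) and WDR45B, a WIPI family member, by -0.02 (adjusted p = 0.944). ULK3 differed by 0.06 (adjusted p = 0.893). The scramblase gene TMEM41B differed by -0.58 (adjusted p = 0.106), and ZFYVE1, which encodes the PI3P-binding protein DFCP1, by 0.57 (adjusted p = 0.0567), with all 5 doxycycline arrays above all vehicle arrays. These genes were chosen after their values were seen.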
